A study of Mus musculus with 4 samples.

Results

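Astrocyte nuclei of the mouse hippocampus were selected from single-nuclei RNAseq (snRNAseq) by 6 marker genes, and 621 of 56834 nuclei (1.09%) met the rule. A nucleus was selected when its unique transcripts (UMIs) of Slc1a3, Gja1, Aqp4, Acsbg1, Rfx4 and Slc7a10 summed to at least 3 and to at least 15 per 10,000 of its UMIs, when those of the neuronal genes Syt1 and Snap25 stayed under 20 per 10,000, and when it held no UMI of the ependymal gene Tmem212. Nuclei with over 20% mitochondrial UMIs, 516 of the 57350 deposited, were left out first. Because measured values chose the nuclei, the marker levels and the contrast with other nuclei are given as description, with no test.

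The study asked how repeated social defeat (RSD) acts on the hippocampus when microglia are depleted or when neurons lack the interleukin-1 receptor IL-1R1. Under RSD, males caged by 3 met an aggressive CD-1 intruder in 6 nightly sessions of 2 h, and their nuclei were taken 14 h after the last; control mice (Con) met none. Each of the 8 conditions was 1 pool of hippocampi from 3 mice. In the diet experiment, C57BL/6 mice bought at 5 to 7 weeks ate vehicle chow (Veh) or chow with PLX5622 (PLX), an inhibitor of the colony-stimulating factor 1 receptor that microglia need to survive, which gave the pools Con-Veh, Stress-Veh, Con-PLX and Stress-PLX. In the genotype experiment, mice bred in-house, whose age was not given in the sources used here, were IL-1R1+/+ (Cre-negative) or nIL-1R1-/- (Cre under Vglut2, a gene of glutamatergic neurons), which gave Con and Stress pools of each genotype. The Cre driver was a neuronal one, so the deletion was not aimed at astrocytes. With 1 pool per condition, RSD was tested only as the mean difference over 4 Con and Stress pairs that share a diet or genotype, diet and genotype each over 2 pools against 2, and p-values measure only the spread between pools. No nucleus barcode was shared between pools.

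Astrocytes clear glutamate and potassium from around synapses, supply neurons with metabolic substrate and glutamine, make cholesterol, and touch blood vessels with endfeet rich in the water channel AQP4. They carry glucocorticoid and mineralocorticoid receptors, so stress hormones reach them directly. After injury or inflammation they can turn on a reactive program that includes Gfap, Vim, Lcn2 and Serpina3n.

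The markers of the rule were unevenly abundant. The selected nuclei held 4262 marker UMIs, of which 67.0% were Slc1a3, the glutamate transporter GLAST, and in 173 nuclei (27.9%) Slc1a3 was the only marker seen. The median nucleus had 5 marker UMIs and the highest 39. At the edge of the rule, 155 nuclei had exactly 3 marker UMIs, while 197 nuclei had 2 and met all other terms. By density, 56 selected nuclei held 15 to 20 marker UMIs per 10,000, and 68 nuclei just outside held 10 to 15. A further 92 nuclei met the marker terms but had too many Syt1 and Snap25 UMIs, and 9 were left out for Tmem212 alone. Slc1a2, an astrocyte glutamate transporter gene the rule did not use, had a UMI in 78.3% to 98% of the selected nuclei of a pool. In neuronal nuclei, those with at least 20 Syt1 and Snap25 UMIs per 10,000 and with medians of 659 to 5901 UMIs, the share was 17.0% to 56.8%. After thinning each nucleus to 500 UMIs, with shallower nuclei left out, the shares were 62.6% to 94.7% against 8.67% to 12.9%. Of the selected nuclei, 27 had no UMI of any of 21 other astrocyte genes (Slc1a2, Gpc5, Aldh1l1, Sox9 and others).

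The share of selected nuclei did not move one way with RSD. It was 1.18% in Con-Veh (100 nuclei) and 0.750% in Stress-Veh (55), and 0.745% in Con-PLX (55) against 1.50% in Stress-PLX (115). In the genotype experiment it was 1.43% in Con-IL-1R1+/+ (108) against 1.01% in Stress-IL-1R1+/+ (59), and 0.922% in Con-nIL-1R1-/- (60) against 1.14% in Stress-nIL-1R1-/- (69). The share was thus higher after RSD in 2 of 4 pairs and lower in the others. The mean log2 ratio was 0.04 ± 0.77 (SD, n = 4 pairs; exact sign-flip permutation test over pairs, two-sided p = 1, smallest possible p = 0.125). The ratio was −0.24 (two-sided exact p = 0.625) without the clusters led by genes of other cell types described below.

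Depth differed between pools. Selected nuclei held a median of 633 UMIs in Con-PLX and 832 in Stress-PLX, against 1215 in Stress-Veh, 1360 in Stress-nIL-1R1-/-, 1546.5 in Con-Veh, 1754 in Con-IL-1R1+/+, 1940 in Stress-IL-1R1+/+ and 1953 in Con-nIL-1R1-/-. The pooled UMIs behind each value ranged from 44309 in Con-PLX to 227202 in Con-IL-1R1+/+. The 2 PLX pools had the lowest medians per nucleus. The limit set on a count of 0 follows the pooled UMIs instead and was highest in Con-PLX, then in Stress-Veh (79171 UMIs). The nuclei of every pool were spread over the 4 sublibraries analysed here, and in all 8 pools sublibraries 1 and 4 gave higher shares of selected nuclei than 2 and 3 (1.42% and 1.48% against 0.820% and 0.598% over the 8 pools, with median UMIs over all nuclei of 2484 and 3126 against 1388 and 1131).

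**Figure D1:**
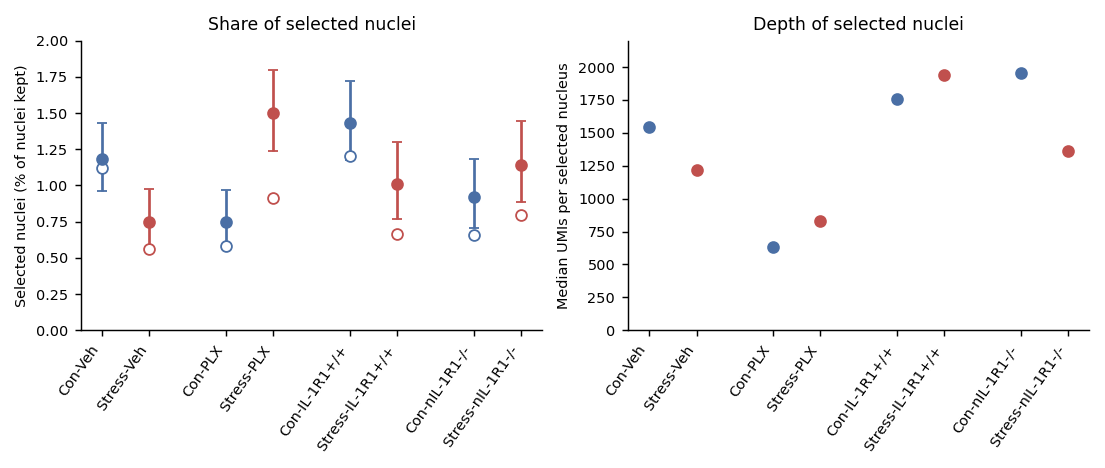
Left, selected nuclei as a percentage of nuclei kept in each pool (filled points, blue for Con and red for Stress, bars exact 95% Clopper-Pearson intervals, which cover counting error only), with open points for the share without clusters led by genes of other cell types. Right, median UMIs per selected nucleus. The share is higher in Stress than in Con under PLX and in nIL-1R1-/- and lower in the other 2 pairs, and the PLX pools have the lowest medians.

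Against all other nuclei, the selected nuclei were marked by genes of astrocyte identity that the rule did not name. Levels are given in CPM, the UMIs of a gene per 1000000 UMIs of the same nuclei. Among 912 genes with at least 200 UMIs here and a UMI in at least 6 pools, 98 were at least 10-fold above the other nuclei. Beside the rule markers Acsbg1 (225-fold), Slc7a10 (185-fold), Rfx4 (101-fold) and Slc1a3 (69.1-fold), the leading genes were Gm6145 (135-fold), the growth factor receptor Fgfr3 (112-fold), the transcription factor Prdm16 (109-fold), Atp13a4 (105-fold) and the NMDA receptor subunit Grin2c (88.9-fold). Gli3 (83.2-fold) and Gli2 (79.8-fold), which carry the hedgehog signal, and Gldc (77.9-fold), which breaks down glycine, followed. Slc7a11 (49.4-fold), which trades cystine for glutamate, and the phagocytic receptor Mertk (48.8-fold) stood lower in the same order. These folds, and their order, are from UMIs summed over all pools. In single pools they ran from 25.3 to 199 for Gm6145, 26.5 to 216 for Prdm16 and 31.1 to 229 for Gli3. No gene in this paragraph was tested, since the nuclei were sorted on astrocyte transcripts beforehand.

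The selected nuclei were not all of one kind. They fell into 11 clusters, named here by their leading genes. The largest, cluster 1 (118 nuclei), was led by Ranbp3l and Adamts20, cluster 2 (103) by Dio2, which activates thyroid hormone, cluster 5 (52) by Slc1a3 and Phactr3, and cluster 9 (24) by Adgrv1 and Tnc. Cluster 8 (32 nuclei) was led by Gfap, the intermediate filament of fibrous astrocytes, at 596 CPM against 0 to 220 CPM in the other 10 clusters, and by Sned1 and Adamts9. Cluster 3 (98 nuclei) was led by Ddn and mitochondrial transcripts, with a median of 6.86% mitochondrial UMIs against 0.586% or less in the others. Cluster 6 (43 nuclei) was led by B230323A14Rik, Gm33680 and Etnppl, with the GABA transporter Slc6a11 and Erbb4 among its first 10 genes. Of its nuclei, 32 (74.4%) came from Con-IL-1R1+/+ and at most 2 from any other pool. Whether it stands for that pool or for a kind of cell was not tested.

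Clusters 4, 7, 10 and 11, with 151 nuclei (24.3%), went against the astrocyte label. Cluster 4 (72 nuclei, 38 of them from Stress-PLX) was led by Mmel1 and Svop and held a median of 38 neuron marker UMIs per nucleus against 10 of the other astrocyte genes. Cluster 7 (39 nuclei, 17 of them from Stress-nIL-1R1-/-, and 0 from Con-Veh or either PLX pool) was led by Selplg, Hpgds, Vav1, Itgam and Siglech, genes of myeloid cells. It held no UMI of Gja1, Aqp4, Rfx4 or Slc7a10, 208 of Slc1a3, and 1181 CPM of Csf1r. Cluster 10 (22 nuclei; Megf11, Lhfpl3, Vcan, Tnr) was oligodendrocyte precursor-like and cluster 11 (18 nuclei; Mag, Prr5l and St18 among its leading genes) oligodendrocyte-like. The other 470 nuclei were not free of such signs. Cluster 3, kept among them, had the neuronal genes Ddn, Kif5a and Camk2n1 among its first 10. None of the 21 other astrocyte genes was among its first 10, but the same held for the kept clusters 1, 6 and 9. Cluster 3 held a median of 16 neuron marker UMIs per nucleus against 36.5 of the other astrocyte genes. Cluster 8, also kept, had the highest share of ependymal marker UMIs of all clusters. Results below are given for all 621 nuclei and, for most genes and lists that are described, also for these 470. No doublet caller was run, and whether nuclei of cluster 4, which pair neuronal and astrocyte transcripts, were doublets was not tested.

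**Figure D2:**
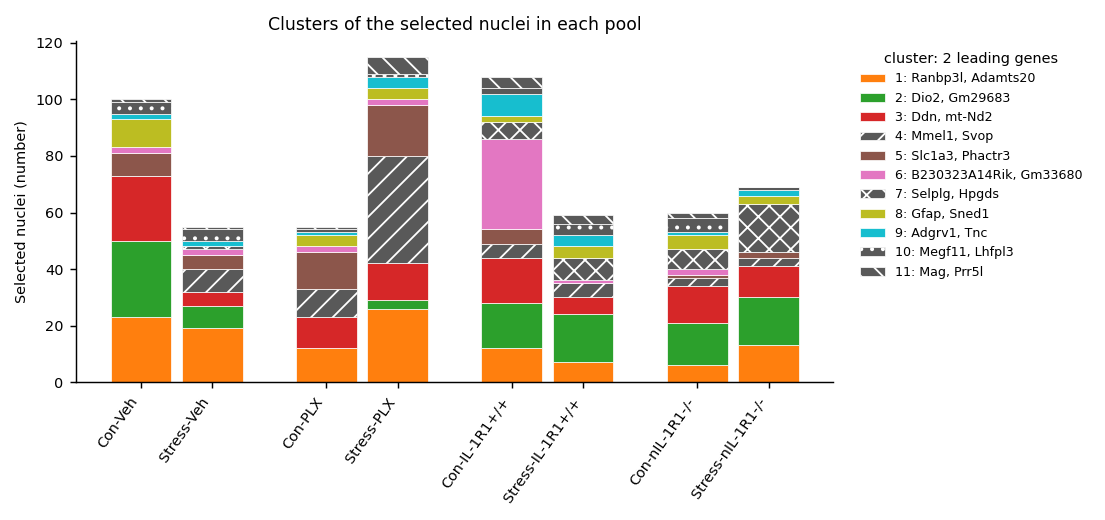
Number of selected nuclei of each cluster in each pool, as stacked bars; hatched grey bars are clusters 4, 7, 10 and 11, led by genes of other cell types. Cluster 4 is widest in Stress-PLX (38 nuclei), cluster 6 in Con-IL-1R1+/+ (32) and cluster 7 in Stress-nIL-1R1-/- (17).

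Markers of other cell types differed between the pools. Neuron markers (16 genes, Celf2, Rbfox1 or Meg3 the most abundant) summed to 87.9 UMIs per 10,000 in Con-Veh, 125 in Stress-Veh, 199 in Con-PLX and 200 in Stress-PLX. In the genotype experiment they summed to 102 in Con-IL-1R1+/+, 140 in Stress-IL-1R1+/+, 102 in Con-nIL-1R1-/- and 86.1 in Stress-nIL-1R1-/-. Both PLX pools were thus above all 6 others, and without the 4 clusters the range over pools narrowed to 77.9 to 119, with Con-PLX at the top. All other nuclei, mostly neurons, gave 462 to 610 per 10,000.

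Microglia markers (8 genes, Inpp5d the most abundant in the 4 genotype pools) were 0.484 per 10,000 in Con-Veh, 2.53 in Stress-Veh, 0.226 in Con-PLX and 0.420 in Stress-PLX. They reached 4.67 in Con-IL-1R1+/+, 6.67 in Stress-IL-1R1+/+, 5.65 in Con-nIL-1R1-/- and 20.1 in Stress-nIL-1R1-/-. The genotype pools were all above the diet pools, Stress-nIL-1R1-/- stood highest, and the sum was higher after RSD in all 4 pairs. In no pool did it exceed 0.930 without the 4 clusters. Csf1r had 0 UMIs in Con-Veh, Con-PLX and Stress-PLX, which allows up to 16.1, 67.7 and 25.2 CPM. Endothelial markers were 7.83 per 10,000 in Stress-Veh, led by Mecom with 24 UMIs, and at most 1.76 elsewhere, and Stress-Veh stayed apart without the 4 clusters (11.5). The Stress-Veh sum was 62 UMIs, and over all 8 pools only 5 of 621 selected nuclei held 2 or more endothelial marker UMIs.

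Oligodendrocyte markers (9 genes, Mbp the most abundant in 6 of 8 pools) ranged from 2.25 in Stress-nIL-1R1-/- to 19.5 per 10,000 in Stress-PLX. Oligodendrocyte precursor markers (8 genes) ranged from 5.24 in Con-IL-1R1+/+ to 16.9 in Con-nIL-1R1-/- and were 4.40 or less in every pool without the 4 clusters. Mural and leptomeningeal markers (10 genes, mainly Ranbp3l, Pdgfrb and Atp13a5) lay between 2.33 and 4.14 per 10,000, and ependymal markers (8 genes, Tmem212 at 0 by the rule) between 0.108 and 2.48. The 21 other astrocyte genes summed to 279 in Con-Veh, 203 in Stress-Veh, 183 in Con-PLX and 135 per 10,000 in Stress-PLX. They summed to 216 in Con-IL-1R1+/+, 202 in Stress-IL-1R1+/+, 232 in Con-nIL-1R1-/- and 210 in Stress-nIL-1R1-/-. They were lower after RSD in all 4 pairs, and without the 4 clusters, where they ranged from 216 to 289, they were lower only in Stress-Veh.

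**Figure D3:**
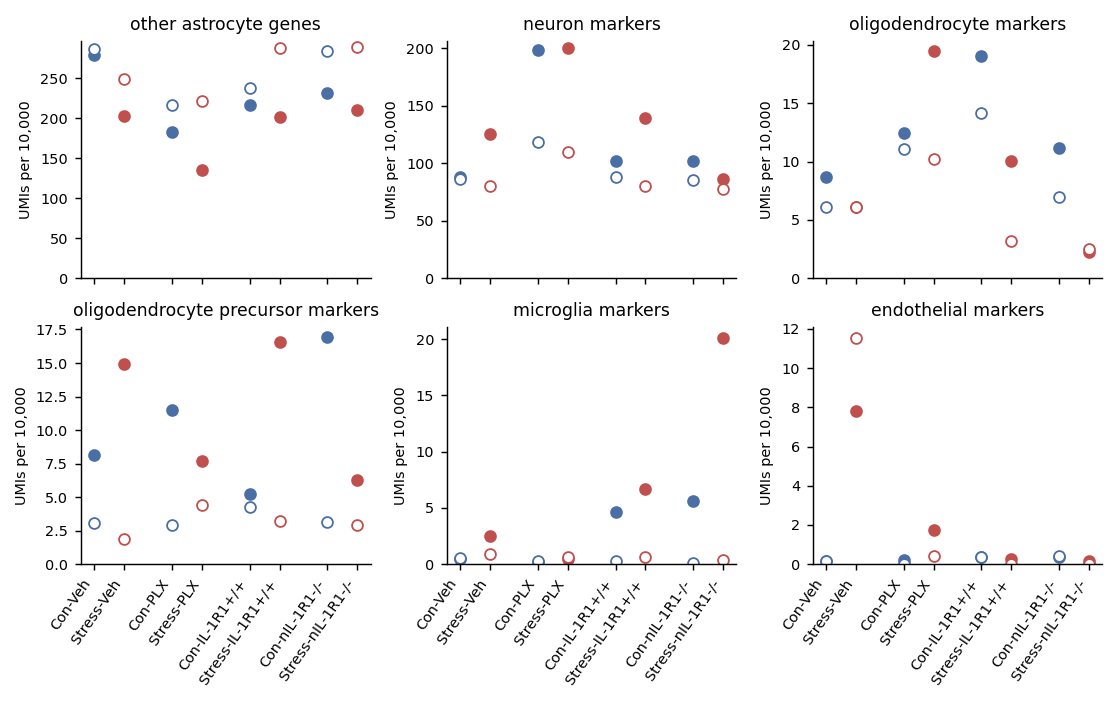
Summed UMIs per 10,000 in the selected nuclei of each pool for the other astrocyte genes and for markers of neurons, oligodendrocytes, their precursors, microglia and endothelial cells (filled points all selected nuclei, open points without clusters 4, 7, 10 and 11; blue Con, red Stress). The microglia sum of 20.1 in Stress-nIL-1R1-/- is 0.370 without those clusters, while the endothelial sum in Stress-Veh is no lower.

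RSD was compared first, as the mean over the 4 pairs. Of 3099 genes tested by edgeR's quasi-likelihood test on UMIs summed per pool, with Benjamini-Hochberg adjustment, 0 (0%) passed an adjusted p of 0.05. At an unadjusted p under 0.05, 172 genes (5.55%) were higher and 142 (4.58%) lower after RSD, and the smallest adjusted p was 0.0843. DESeq2 also called 0, with 113 genes at an unadjusted p under 0.05. Of all genes tested, 274 (8.84%) were higher and 279 (9%) lower in all 4 pairs. In the other nuclei of the same pools, which hold far more UMIs, 69 of 19759 genes were called higher (0.349%) and 8 lower (0.0405%). A single nucleus bore on the count. The deepest selected nucleus, of Stress-IL-1R1+/+ and in cluster 4, held 23720 UMIs, 15.2% of its pool and above the next deepest at 9799, with 804 neuron marker UMIs. Without it, 6 genes passed higher (Fkbp5, Ccnd3, Inpp5d, Fyb, Slco2b1 and Tgfbr1) and 1 lower (Lars2).

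Fkbp5 (chr17:28618058-28737521, minus strand), which encodes a co-chaperone of the glucocorticoid receptor and is a standard glucocorticoid target, had the smallest p of the genes higher in all pairs. Its level was 80.7 CPM in Con-Veh against 126 in Stress-Veh, and 22.6 in Con-PLX against 134 in Stress-PLX. In the genotype experiment it was 26.4 in Con-IL-1R1+/+ against 218 in Stress-IL-1R1+/+, and 130 in Con-nIL-1R1-/- against 509 in Stress-nIL-1R1-/-. Each Stress pool was above its own control, though Con-nIL-1R1-/- was above Stress-Veh. The log2 difference was 1.88 ± 0.35 (SE), with an adjusted p of 0.0843, and 0.0162 without the deepest nucleus, which held 0 of its UMIs. Of the 160 Fkbp5 UMIs, 92 lay in cluster 7, at 1358 CPM. Without the 4 clusters Fkbp5 was 78.9 against 149, 0 against 180, 20.2 against 99.9 and 30.2 against 73.9 CPM in the same order of pairs, from 0 to 14 UMIs a pool, and the log2 difference was 1.66 (adjusted p = 0.572). The 0 UMIs of Con-PLX, from a total of 34204 in these nuclei, allow up to 87.7 CPM. The other nuclei held 61.7 to 113 CPM, so levels in the 470 nuclei lay on both sides of those elsewhere, and the log2 difference there was 0.42 (adjusted p = 0.220).

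Ccnd3 (chr17:47815767-47910624, plus strand), which encodes cyclin D3 and was singled out after its values were seen, kept its difference without the 4 clusters. Its level was 199 CPM in Con-Veh against 733 in Stress-Veh and 158 in Con-PLX against 160 in Stress-PLX. In the genotype experiment it was 110 in Con-IL-1R1+/+ against 269 in Stress-IL-1R1+/+ and 115 in Con-nIL-1R1-/- against 675 in Stress-nIL-1R1-/-. The other 3 Stress pools stood above all Con pools, while Stress-PLX was level with Con-PLX. The log2 difference was 1.60 ± 0.32 (SE; adjusted p = 0.0843). It was 1.55 without the 4 clusters (adjusted p = 0.0431), and the levels were higher after RSD in all 4 pairs, at 209 against 782, 175 against 260, 96.2 against 222 and 111 against 419 CPM. Ccnd3 was also higher in the other nuclei, from 10.9 to 24.4 CPM in the Con pools to 29.3 to 50.9 in the Stress pools (log2 difference 1.20, adjusted p = 0.00583), so a difference in this direction was not particular to the selected nuclei.

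For the next genes with a higher fitted value in all 4 pairs, most UMIs lay in cluster 7 or, in Stress-IL-1R1+/+, in the deepest nucleus. Slco2b1, an organic anion transporter, was 0, 0, 44.0 and 160 CPM in Con-Veh, Con-PLX, Con-IL-1R1+/+ and Con-nIL-1R1-/-, and 126, 8.40, 180 and 417 CPM in the matching Stress pools. The 0 UMIs allow up to 16.1 CPM in Con-Veh and 67.7 in Con-PLX, so the PLX pair, with 1 UMI in Stress-PLX, showed no difference at this depth. Its log2 difference was 1.98 ± 0.43 (adjusted p = 0.0843), and 113 of its 120 UMIs lay in cluster 7. Mef2c, a transcription factor of neurons and microglia, had a difference of 1.53 ± 0.35 (adjusted p = 0.0850) and 84 of 135 UMIs in cluster 7. Tiam1, a Rac activator, differed by 1.86 ± 0.41 (adjusted p = 0.0843) and the adhesion gene Sdk1 by 1.64 ± 0.36 (adjusted p = 0.0843), and the deepest nucleus held 19 of 32 Tiam1 and 42 of 60 Sdk1 UMIs of Stress-IL-1R1+/+. Without that nucleus their differences were 1.48 and 1.05, with adjusted p of 0.204 and 0.409. Inpp5d, Fyb and Tgfbr1, microglial genes noted after their values were seen, had differences of 1.91, 2.38 and 1.39 with 3 of 4 pairs higher, and 205 of 215, 88 of 92 and 218 of 277 UMIs in cluster 7. Over the alternatives Slco2b1 ranged from 1.60 to 2.69, Mef2c from 1.29 to 1.91, Tiam1 from 1.48 to 2.21 and Sdk1 from 1.05 to 1.95. With no filter on low counts Slco2b1, Tiam1 and Sdk1 passed.

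Among genes lower in all 4 pairs, Lars2 (chr9:123195952-123291731, plus strand), which encodes the mitochondrial leucyl-tRNA synthetase, came first. It was 1850 CPM in Con-Veh against 1263 in Stress-Veh, 1648 in Con-PLX against 722 in Stress-PLX, 1681 in Con-IL-1R1+/+ against 731 in Stress-IL-1R1+/+, and 1886 in Con-nIL-1R1-/- against 1134 in Stress-nIL-1R1-/-. The Con and Stress pools did not overlap. The log2 difference was −0.98 ± 0.20 (SE; adjusted p = 0.0843), −0.93 without the deepest nucleus (adjusted p = 0.0393) and −0.87 without the 4 clusters (adjusted p = 0.178). It was smaller, −0.43, in nuclei with at least 30 marker UMIs per 10,000, −0.60 without nuclei that held a Syt1 or Snap25 UMI, and −0.64 without nuclei that held 2 or more UMIs of other glial or endothelial markers. The other nuclei did not share this direction, with a log2 difference of 0.20 (adjusted p = 0.576). Of its 1482 UMIs, 867 lay in cluster 3, the one led by mitochondrial transcripts. That cluster held 23, 11, 16 and 13 nuclei of Con-Veh, Con-PLX, Con-IL-1R1+/+ and Con-nIL-1R1-/- against 5, 13, 6 and 11 of the matching Stress pools, and its part in the result was not tested. The mitochondrial ribosomal RNA mt-Rnr1, with 4958 of 6714 UMIs in the same cluster, had a log2 difference of −0.80 ± 0.21 (adjusted p = 0.158). For mt-Rnr1 it was −0.52 without the 4 clusters, and −0.39, −0.05 and −0.26 under the same 3 selections.

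Slc7a11 (chr3:49846975-50398070, minus strand), the cystine and glutamate exchanger, was 312 CPM in Con-Veh against 114 in Stress-Veh and 474 in Con-PLX against 218 in Stress-PLX. In the genotype experiment it was 207 in Con-IL-1R1+/+ against 122 in Stress-IL-1R1+/+ and 275 in Con-nIL-1R1-/- against 125 in Stress-nIL-1R1-/-. Each Stress pool was below its control, and only Stress-PLX reached into the range of the Con pools. The log2 difference was −1.16 ± 0.26 (SE; adjusted p = 0.0843). It was −0.68 without nuclei with UMIs of other glial or endothelial markers and −0.48 without the 4 clusters (adjusted p = 0.803), with the PLX pair turned to 292 against 460 CPM. Mbp, a myelin gene, differed by −1.09 ± 0.28 (adjusted p = 0.158), by −1.43 without the 4 clusters (adjusted p = 0.0933), by −0.22 without nuclei that held a Syt1 or Snap25 UMI and by −0.35 after thinning to 500 UMIs. Its PLX pair was close to level: 429 CPM in Con-PLX against 470 in Stress-PLX, a log2 difference of −0.04 after TMM normalization. Of the 441 Mbp UMIs, 238 lay in cluster 3, which was kept when the 4 clusters were left out, and its part in this result was not tested.

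**Figure D4:**
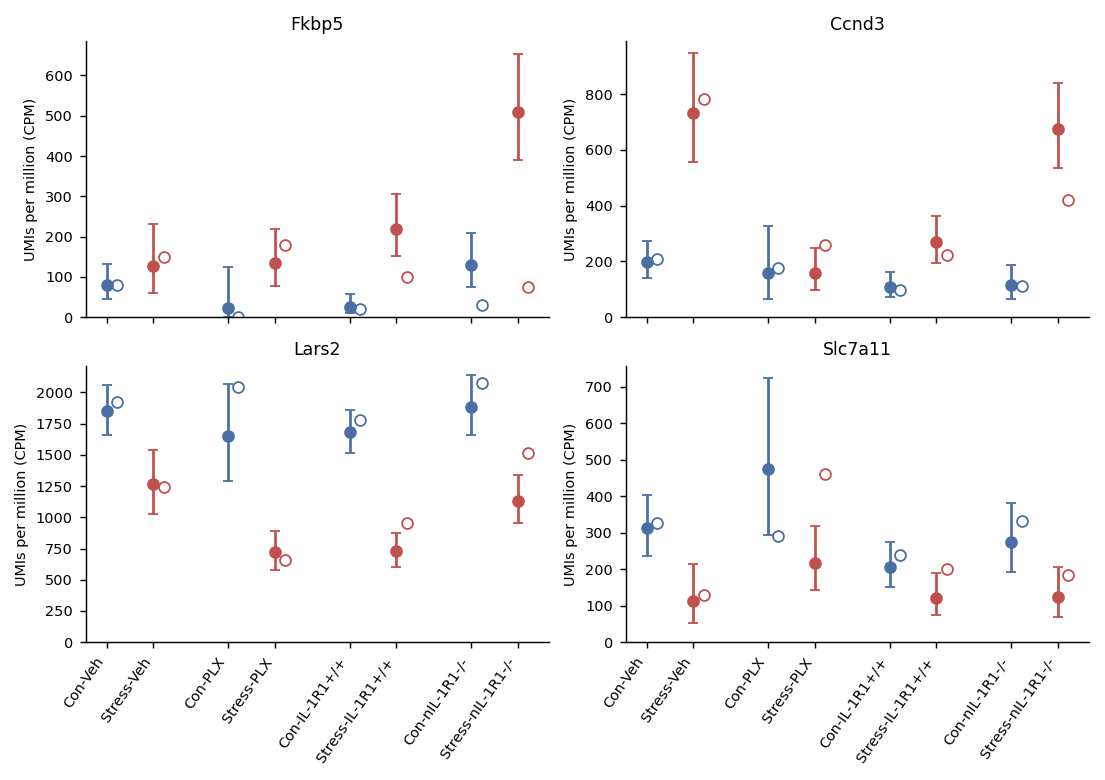
Levels of Fkbp5, Ccnd3, Lars2 and Slc7a11 in each pool, in CPM (filled points with 95% Poisson intervals for counting error only, blue Con and red Stress; open points without clusters 4, 7, 10 and 11). Fkbp5 in Stress-nIL-1R1-/- is 509 CPM, and 73.9 without those clusters, and Lars2 in every Stress pool lies below every Con pool in the filled points.

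Corticosteroid genes were read as a list of 28, all with at least 1 UMI and 9 tested. None passed. At an unadjusted p under 0.05, 2 (Fkbp5 and Zbtb16) were higher and 1 (Nr3c1) lower, where 5.55% and 4.58% of all genes tested were. The median log2 difference was 0.34, or 0.48 without the 4 clusters, against 0.01 over all genes tested. Zbtb16, a hormone-induced zinc finger factor, was 914 against 1048 CPM, 790 against 907, 251 against 455 and 137 against 442, in the order Veh, PLX, IL-1R1+/+ and nIL-1R1-/- (log2 difference 0.59 ± 0.25, adjusted p = 0.447). It was higher in all 4 pairs, and all 4 genotype pools lay below all 4 diet pools. Nr3c1, the glucocorticoid receptor itself, was 167 against 50.5 CPM, 67.7 against 75.6, 273 against 160 and 237 against 200 (−0.71 ± 0.31, adjusted p = 0.463). Nr3c2, the mineralocorticoid receptor, was lower in the diet pairs and higher in the genotype pairs (−0.19, adjusted p = 0.867). Tsc22d3, a glucocorticoid target noted after its values were seen, had 79 UMIs in all and was higher in 2 of 4 pairs, and Sgk1 and Per1 had 33 and 86 UMIs.

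No gene of astrocyte function passed the test of RSD. Of 18 tested among the 21 other astrocyte genes, 0 were higher and 3 lower at an unadjusted p under 0.05 (the proteoglycan Gpc5, the bicarbonate transporter Slc4a4 and the Bmp receptor Bmpr1b), and 8 were lower in all 4 pairs. Over all genes tested these shares were 4.58% lower at that p and 9% lower in all 4 pairs. The median of the list was −0.32. Without the 4 clusters the median was −0.03. Slc1a2, the main glutamate transporter of the adult forebrain, was 9160 against 6315 CPM, 4717 against 3797, 5449 against 5279 and 6742 against 6663 in the order of pairs above (−0.29, adjusted p = 0.624). Gpc5, with the most UMIs of the list, was 9822 against 6543, 7109 against 4326, 8085 against 8070 and 9169 against 8022 CPM (−0.44 ± 0.18, adjusted p = 0.447). Both were lower in each Stress pool than in its control, by least in the genotype pairs, and without the 4 clusters their differences were 0.06 and −0.05. The rule markers are given as levels alone: Gja1, the main astrocyte gap junction subunit, was 204, 158, 106 and 168 CPM in the Con pools and 63.2, 101, 70.6 and 83.4 in the matching Stress pools, from 5 to 38 UMIs a pool. Of the 6 rule markers, 0 were higher and 3 lower in all 4 pairs, against 8.84% and 9% of all genes tested.

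No gene of the other lists of astrocyte work passed the test. The counts that follow are at an unadjusted p under 0.05, which 5.55% of all 3099 genes passed as higher and 4.58% as lower. Genes the rule used were left out of these lists. Of 14 tested genes for glutamate and GABA handling, Slc7a11 and Slc6a11 were lower and 0 were higher (median −0.29, 0.0047 without the 4 clusters). Cluster 6 held 155 Slc6a11 UMIs, at 1738 CPM against at most 454 in any other cluster. It had 32 nuclei of Con-IL-1R1+/+ against 1 of Stress-IL-1R1+/+, and its part in the Slc6a11 difference was not tested. Of 19 tested synapse genes, 6 were lower (among them Sparcl1, Gpc5, Nlgn1, Lgi1 and Ptn) and 0 higher (median −0.29, −0.04 without the clusters). Of 14 tested transcription factors, 4 (Nfia, Rorb, Npas3 and Trps1), and of 15 cholesterol and lipid genes 3 (Hmgcs1, Fdft1 and Acsl6), were lower and 0 higher, with medians of −0.34 and −0.47, and −0.04 and −0.22 without the clusters. Of 24 growth factor, Notch, Bmp and Wnt receptors, Tgfbr1 was higher and Egfr and Bmpr1b lower (median −0.05, 0.04 without the clusters). Of 21 neurotransmitter and calcium genes, 1 was higher (Grm5) and 2 were lower (Gabra4 among them), with a median of −0.08, or −0.02 without the clusters. Among 11 clock genes, Nr1d2 and Rorb were lower, and among 12 water, potassium and gap junction genes Slc4a4 was lower. No gene of 8 in glucose, glycogen and lactate metabolism reached an unadjusted p under 0.05. Of 8 abundant nuclear noncoding RNAs Rn7sk and Miat were higher. In the lists of other cells, Csf1r and Inpp5d of 3 microglia markers were higher, Mbp and Mobp of 5 oligodendrocyte markers were lower, and 0 of 3 oligodendrocyte precursor markers, 3 mural and leptomeningeal markers, 3 genes of other brain regions and 1 stem cell gene reached that p.

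The reactive program was mostly too sparse to test. Of its 41 genes, 24 had a UMI and 4 were tested, and 1 of these, the matrix gene Tnc, was lower at an unadjusted p under 0.05 (−0.80, adjusted p = 0.490). Gfap was 167 against 164 CPM, 248 against 134, 110 against 109 and 145 against 58.4 in the order Veh, PLX, IL-1R1+/+ and nIL-1R1-/- (−0.54 ± 0.31, adjusted p = 0.604, and −0.27 without the 4 clusters). It was not higher after RSD in any pair. A Gfap UMI was seen in 7.83% to 20% of selected nuclei, against at most 0.485% of neuronal nuclei, which had median UMIs of 659 to 5901, and after thinning each nucleus to 500 UMIs in 1.67% to 10.6%. Lcn2 had 0 UMIs, Serpina3n 1 and Vim 8 in all 621 nuclei, all 3 looked up after their values were seen. Among 39 genes of the IL-1 and NF-kB pathway 33 had a UMI and 9 were tested, and Tab2 was lower at an unadjusted p under 0.05 (−0.62, adjusted p = 0.484). Il1r1, the gene deleted in neurons, had 12 UMIs over all 8 pools, at most 3 in 1 pool, so its level in these nuclei could not be compared. Immediate early genes, chaperones, interferon and antigen presentation genes and forebrain region genes had 0 members deep enough to test.

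PLX5622 diet was compared with vehicle over the Con and the Stress pools. In the other nuclei of these pools Csf1r, the receptor the drug blocks and a microglial gene, was 5.71 CPM in Con-Veh and 13.7 in Stress-Veh against 1.71 in Con-PLX and 1.21 in Stress-PLX, which is the order the labels call for. Of 3099 genes 0 (0%) passed in edgeR's test, with 183 (5.91%) higher and 124 (4%) lower under PLX at an unadjusted p under 0.05 and a smallest adjusted p of 0.105. DESeq2 called 4 genes higher, Meg3, Nkain2, Hs6st3 and Camk2a. Meg3 and Camk2a belong to the neuron marker list, and that list lay on the same side. Of its 11 tested genes, with Syt1 and Snap25 left out because the rule capped them, 9 were higher at an unadjusted p under 0.05 and 0 lower. The median was 1.13 against −0.03 over all genes tested, or 0.60 without the 4 clusters. Meg3, a noncoding RNA of neurons, was 936 CPM in Con-Veh against 2911 in Con-PLX and 1642 in Stress-Veh against 4032 in Stress-PLX (log2 difference 1.51 ± 0.28, adjusted p = 0.105). Its level in the other nuclei was 9458, 11547, 9664 and 8871 CPM in the same 4 pools. Meg3 was, without the 4 clusters, 941 against 1579 and 930 against 1480 CPM, a difference of 0.78 (adjusted p = 0.663). Camk2a, a neuronal kinase, differed by 1.69, Nkain2 by 1.40 and Hs6st3 by 1.64, and without the 4 clusters by 1.07, 0.72 and 1.69. Camk2a differed by 0.69 without nuclei that held a Syt1 or Snap25 UMI. After thinning to 500 UMIs, Meg3 differed by 1.70, Hs6st3 by 2.37, Nkain2 by 1.63 and Camk2a by 1.51. Rnf220, with 74 of 119 UMIs in the oligodendrocyte-like cluster 11, differed by 2.73. Nkain2 was also highest in cluster 11, at 9274 CPM against 2402 in cluster 4 and at most 1129 in any other cluster. All 5 tested oligodendrocyte markers were higher at an unadjusted p under 0.05 (median 1.49, or 1.10 without the 4 clusters). The PLX pools had the lowest median UMIs per nucleus, the highest neuron marker sums and most of the nuclei of cluster 4, and their part in these differences was not tested.

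The 5 genes lower under PLX with the smallest p were all at higher levels in the selected nuclei than in the other nuclei of the same pool. Adk, the adenosine kinase by which astrocytes clear adenosine, was 839 CPM in Con-Veh against 293 in Con-PLX and 707 in Stress-Veh against 361 in Stress-PLX (log2 difference −1.18 ± 0.32, adjusted p = 0.221). Its 2 PLX pools lay below the 6 other pools, which ran from 557 to 839 CPM. Znrf3, a Wnt receptor ubiquitin ligase, differed by −1.79, the chloride channel gene Ttyh1 by −1.16, Acot11, an acyl-CoA thioesterase, by −1.98 and Cables1 by −1.09, with adjusted p from 0.151 to 0.264. Without nuclei that held a Syt1 or Snap25 UMI, Znrf3 differed by −0.82, Ttyh1 by −0.64 and Cables1 by −0.59, and Acot11 by −1.07 without nuclei with UMIs of other glial or endothelial markers. Of 18 tested other astrocyte genes, 6 were lower (Slc1a2, Glul, Ntsr2, Slc4a4, Htra1 and Bmpr1b) and 0 higher at an unadjusted p under 0.05, with a median of −0.54, and 13 were lower in both comparisons. Of all 3099 genes tested, 4% were lower at that p and 894 were lower in both comparisons. Without the 4 clusters the median was −0.40, and Adk differed by −1.06 (adjusted p = 0.663). Adk passed in nuclei with at least 30 marker UMIs per 10,000 (−1.33, adjusted p = 0.0423) and without nuclei with 2 or more UMIs of other glial or endothelial markers (−1.57), and Znrf3 passed in the first of these (−1.70, adjusted p = 0.0475). Glul, the glutamine synthetase that turns glutamate into glutamine, was 479 CPM against 248 and 354 against 218 (−0.78, adjusted p = 0.481). Slc1a3, as a rule marker given as a level alone, was 2571 against 4965 and 2640 against 4242 CPM. It was above its vehicle level in both PLX pools. Of the 6 rule markers it was the only 1 higher in both comparisons on the TMM-normalized scale, and 3 were lower in both. The rule asks for at least 3 marker UMIs and at least 15 per 10,000, and the part of depth in the Slc1a3 difference was not tested.

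The pools labelled nIL-1R1-/- held less Il1r1 in their other nuclei, 5.26 CPM in Con-nIL-1R1-/- and 4.87 in Stress-nIL-1R1-/- against 15.3 in the Con and 12.01 in the Stress pool of IL-1R1+/+ mice. The deletion also gave 0 of 3099 genes (0%) past the adjusted p in edgeR's test, with 82 genes (2.65%) higher and 80 (2.58%) lower in nIL-1R1-/- at an unadjusted p under 0.05. DESeq2 called 0, with 45 genes at an unadjusted p under 0.05. Erbb4, a neuregulin receptor, had the smallest adjusted p, at 1373 CPM in Con-IL-1R1+/+ against 565 in Con-nIL-1R1-/- and 1360 in Stress-IL-1R1+/+ against 309 in Stress-nIL-1R1-/- (log2 difference −1.66 ± 0.30, adjusted p = 0.0567). Cluster 6, with 32 of the 108 nuclei of Con-IL-1R1+/+, held 257 of the 883 Erbb4 UMIs of all 8 pools, and the deepest nucleus held 134 of the 212 in Stress-IL-1R1+/+. Without cluster 6 the difference was −1.12 (adjusted p = 0.623), and without the deepest nucleus −1.15 (adjusted p = 0.554). Srgap1, which encodes a GTPase-activating protein, was 383 against 91.6 and 289 against 75.0 CPM (−1.997 ± 0.37, adjusted p = 0.0567; −1.49 without cluster 6). Car10, Esrrg and Zfp536 differed by −1.42, −1.44 and −1.49, all with an adjusted p of 0.515. Clusters 4 and 11 held 57 and 50 Zfp536 UMIs, against at most 19 in any other cluster. The deepest nucleus held 25 of the 51 in Stress-IL-1R1+/+, and without it Zfp536 differed by −1.11. Over the alternatives Car10 ranged from −1.72 to −0.67, the smallest without nuclei with UMIs of other glial or endothelial markers, and Esrrg from −1.59 to −1.13. Zfp536 was −2.05 with the Con pools left out and −0.86 with the Stress pools left out, and Erbb4 passed with the Con pools left out.

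On the higher side in nIL-1R1-/-, E230029C05Rik (1.80), the ATP-gated channel gene P2rx7 (2.04) and Pde3b (1.44) had 119 of 136, 31 of 72 and 119 of 147 UMIs in cluster 7, which held 6 and 8 nuclei of the IL-1R1+/+ pools and 7 and 17 of the nIL-1R1-/- pools. Pde3b was 2.17 with the Con pools left out, where it passed (adjusted p = 0.0280), and 0.49 with the Stress pools left out. Fkbp5 differed by 1.54 (adjusted p = 0.515) and by −0.03 without the 4 clusters. P2rx7 was, without the 4 clusters, 30.4 against 70.5 CPM in the Con pools and 33.3 against 61.6 in the Stress pools, from 3 to 7 UMIs a pool, too few to test. Gldc, the glycine decarboxylase of astrocytes, was 145 CPM in Con-IL-1R1+/+ against 282 in Con-nIL-1R1-/- and 96.2 in Stress-IL-1R1+/+ against 317 in Stress-nIL-1R1-/-, from 15 to 38 UMIs a pool (1.30 ± 0.37, adjusted p = 0.515), and the diet pools reached from 113 to 312 CPM. Its difference was 1.40 without the 4 clusters (adjusted p = 0.543) and 0.85 without nuclei that held a Syt1 or Snap25 UMI. Among 18 tested other astrocyte genes, 0 reached an unadjusted p under 0.05 in either direction, with a median of −0.05, or 0.02 without the 4 clusters. All 5 tested oligodendrocyte markers were lower in both comparisons, 3 of them at that p (median −1.23, −1.04 without the 4 clusters). Of 11 tested neuron markers, 8 were lower in both and 0 reached that p (median −0.41, −0.09 without the clusters). Of all 3099 genes tested, 2.58% were lower at that p and 813 were lower in both comparisons.

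**Figure D5:**
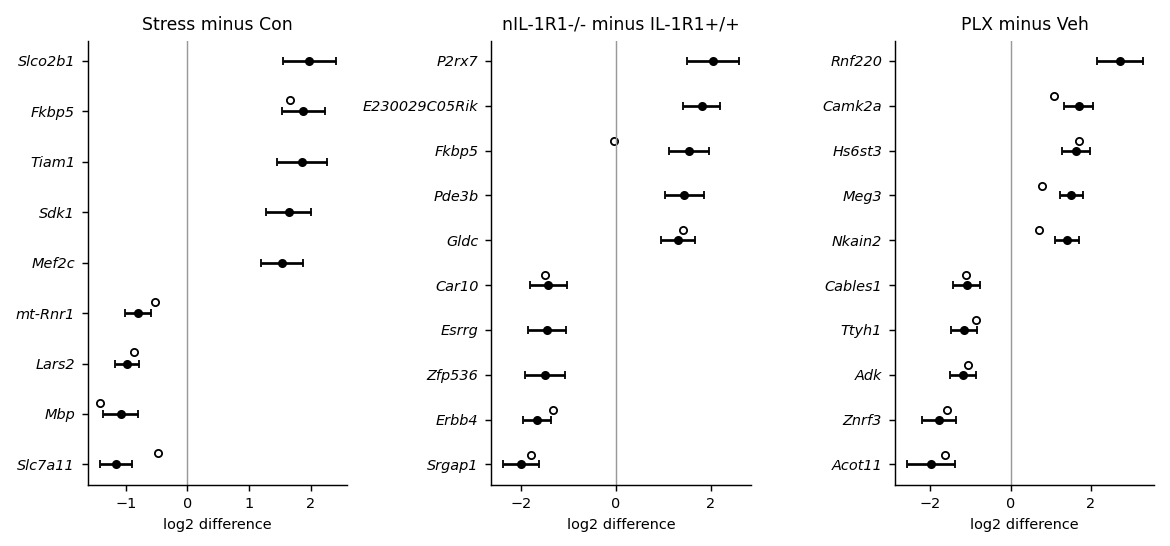
Log2 differences for the genes of smallest p with the same sign in every pair on the TMM-normalized scale, 4 or 5 in each direction, after RSD, by neuronal IL-1R1 deletion and under PLX (filled points with SE bars; open points without clusters 4, 7, 10 and 11, where the gene could still be tested). None passed an adjusted p of 0.05, and the difference in Fkbp5 by deletion is 1.54 in all selected nuclei and −0.03 without those clusters.

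The RSD difference was also set between the diet and the genotype experiment by an interaction term. In edgeR's test 0 of 3099 genes (0%) passed, 177 had an unadjusted p under 0.05, and the smallest adjusted p was 0.502. DESeq2 was not run on this term. For Fkbp5 the interaction was 1.29 ± 0.71 on the log2 scale (adjusted p = 0.812) and for Ccnd3 0.54 ± 0.64 (adjusted p = 0.962), so neither experiment could be said to differ in these genes at this depth.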

How the data were processed

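Nuclei of hippocampus were barcoded by split-pool ligation (Parse Biosciences) in 8 pools of 3 mice after a myelin removal step, and sequenced as sublibraries, of which 4 were analysed here; the study's methods describe more. The authors aligned reads to mm39 (GRCm39) with the Parse pipeline and deposited raw counts, UMIs per nucleus and gene, for each pool; the gene annotation release is not given in the sources used here, and the submitters' processing notes name Seurat 4.1.1. From 57350 nuclei and 56748 genes, nuclei with over 20% mitochondrial UMIs were removed and the marker rule was applied (Python 3.11.15, scipy 1.17.1). Members, gene lists and tests were chosen with earlier results of these data known, and the lists support nothing as independent evidence.

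Counts were summed per pool over selected nuclei, filtered with filterByExpr (17951 genes had a UMI, 3099 were tested) and fitted with edgeR 4.0.16 (R 4.3.3; TMM, quasi-likelihood) with the pair as a block and RSD as a term, leaving 3 residual degrees of freedom, or 2 with the interaction. Adjusted p-values are Benjamini-Hochberg values over all genes tested. The pairing comes from the design: the Con and Stress pools of a pair share a diet or genotype, and no shared animal or batch is given in the labels. The study's own test treats nuclei as replicates and was not used. DESeq2 1.42.0 was an alternative. The fit was tested on simulated counts, and the outcome of that test is not reported here. Selected nuclei were clustered with scanpy 1.11.5 and leidenalg 0.10.2 (1500 variable genes, 15 components, 15 neighbours, resolution 1); clusters with at least 2 of 10 leading genes in another cell type's list, or more neuron than astrocyte UMIs at the median (clusters 4 and 7 by this second term), were taken as led by other cell types.

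The genes named were, for each contrast, the 5 in each direction with the smallest p and one sign in every pair, the most abundant 2 to 4 of each of 28 lists, the rule markers, Il1r1, Csf1r and the 20 genes most enriched against other nuclei; genes outside this were chosen after their values were seen (Ccnd3, Inpp5d, Fyb, Tgfbr1, Neat1, Luzp2, Mertk, Tsc22d3, Sgk1, Per1, Lcn2, Serpina3n and Vim, and members of lists named because they reached an unadjusted p under 0.05). A few genes that met these rules are not reported here. Coordinates are GENCODE vM39 positions on GRCm39. Alternatives covered normalization, low-count filters, the marker thresholds, nuclei with transcripts of other cells, thinning, depth and each pair left out. Intervals (Clopper-Pearson for shares, Poisson for counts) cover counting error only, and a count of 0 was given a limit of 3 UMIs.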

Additional observations from a re-analysis of the deposited data

Results flagged for a closer look

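Dixon's criterion at the 95% level was applied to 82 groups of 4 pools. Single rule marker genes were left out, while their sum was among the groups. By this criterion 8 values lay far from the other 3 of their group, which chance alone meets in about 1 of 20 groups. That rate does not hold for Slc7a11, Camk2a, Erbb4, Car10 and Esrrg, which were named for differences between these same pools. Con-PLX stood apart among the Con pools in neuron markers (199 UMIs per 10,000 against 87.9 to 102), in ependymal markers (2.48 against 0.108 to 0.352, from 11 UMIs) and in Camk2a (880 CPM against 194 to 299). Stress-PLX stood apart among the Stress pools in other astrocyte genes (135 UMIs per 10,000 against 202 to 210) and in Slc7a11 (218 CPM against 114 to 125). Con-IL-1R1+/+ stood apart among the Con pools in Erbb4 (1373 CPM against 497 to 581), Car10 (493 CPM against 118 to 158) and Esrrg (220 CPM against 67.7 to 76.3). The PLX pools had the lowest median UMIs per nucleus, and 74.4% of the nuclei of the cluster led by B230323A14Rik and Etnppl came from Con-IL-1R1+/+. What part depth or that cluster had in these values was not tested.

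Among the named genes of smallest p, 3 had an RSD difference with one sign in both diet pairs and the other in both genotype pairs. The interaction on the log2 scale, genotype minus diet, was −0.61 for Esrrg (adjusted p = 0.953), −0.81 for Rnf220 (adjusted p = 0.907) and −0.31 for Ttyh1 (adjusted p = 0.972), so none passed edgeR's test of the difference with Benjamini-Hochberg adjustment. Nr3c2, named as a corticosteroid gene, had the same pattern, with an interaction of 0.71 (adjusted p = 0.817). Other list members were not searched for it.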

How the results depend on the processing

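For the 30 named differences, 368 of 369 values under the alternatives kept their sign and 39 passed an adjusted p of 0.05. The exception was Fkbp5 by neuronal deletion, −0.0309 without clusters 4, 7, 10 and 11. Counts of genes past the threshold after RSD, 0 higher and 0 lower, became 2 higher without TMM factors (the median of all genes moved from 0.01 to 0.11), 10 higher and 4 lower with no filter on low counts, 1 higher without nuclei with a Syt1 or Snap25 UMI, without the 4 clusters or after thinning to 500 UMIs, 2 higher and 1 lower without cluster 6, and 6 higher and 1 lower without the deepest nucleus. With each pair left out in turn they were 0 to 9 higher and 0 lower, the 9 without the IL-1R1+/+ pair (among them Inpp5d, Fyb, Ccnd3, Tgfbr1, Slco2b1, Elmo1, Dock8 and 4933406I18Rik) and 1, Ccnd3, without the PLX pair. With no replicate block in the fit they stayed at 0 and 0. For neuronal deletion they became 2 lower with no filter on low counts and 3 higher without nuclei with a Syt1 or Snap25 UMI, and 2 to 3 higher and 1 to 5 lower when the control or the stress pools of that experiment were left out; an arm then holds 1 pool, assumed to vary like the others. For PLX they became 4 higher with DESeq2, 3 higher with no filter on low counts, 28 higher and 2 lower at 30 marker UMIs per 10,000, 7 higher and 1 lower without nuclei with 2 or more UMIs of other glial or endothelial markers, 7 higher without cluster 6 or after thinning, and 1 to 7 higher and 0 lower with pools left out. The mean log2 ratio of shares, 0.04, turned to −0.0283 at 30 marker UMIs per 10,000, −0.13 over nuclei low in Syt1 and Snap25 and −0.24 without the 4 clusters, and ranged from −0.28 to 0.27 with a pair left out. A Gfap UMI was seen in 13.6% of nuclei before thinning (mean over pools). The alternatives without the 4 clusters, without cluster 6 and without the deepest nucleus, and the unthinned share, were chosen after seeing the data; the causes of these moves were not tested. With 44309 UMIs in the shallowest pool, a gene at 0 there may reach 67.7 CPM.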

Other observations

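Neat1, a noncoding RNA of nuclear paraspeckles that was noted after its values were seen, was 2184 CPM in the selected nuclei of Stress-PLX against 164 to 425 CPM in the 7 other pools. The same pool stood apart in all other nuclei, at 164 CPM against 11.7 to 45.3. With 1 pool of that condition there is no replicate of the value.

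Luzp2, a gene of hippocampal astrocytes and oligodendrocyte precursors noted in the same way, was higher after RSD in 1 of 4 pairs over all selected nuclei (log2 difference −0.09, adjusted p = 0.941) and in all 4 pairs without clusters 4, 7, 10 and 11, at 1482 against 1824, 1579 against 1740, 2233 against 2852 and 1652 against 2797 CPM in the order Veh, PLX, IL-1R1+/+ and nIL-1R1-/- (0.37, adjusted p = 0.803 in edgeR's quasi-likelihood test).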
